A study of Saccharomyces cerevisiae with 21 samples.

Results

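RNA polymerase I and RNA polymerase III of the budding yeast Saccharomyces cerevisiae, with the factors that place them on their genes, are encoded here by 35 genes. The genes were chosen by symbol, for their known role and with earlier results of these data known. Their counts beside shares of all genes are therefore no independent test. The genes are 35 of the 5449 that the arrays measured. They comprise 7 subunits of polymerase I, 10 subunits of polymerase III, 2 subunits that both enzymes share, 7 initiation factors of polymerase I, 8 subunits of the polymerase III factors TFIIIC and TFIIIB, and MAF1, the repressor of polymerase III. Total RNA was hybridized to 21 Affymetrix yeast arrays, 3 in each of 7 groups. The groups in rich medium (YPD, with yeast extract, peptone and glucose) were heat stress with ISP1, heat stress, ISP1, and control. In SC, synthetic complete medium, they were myristate with ISP1, myristate, and control. ISP1 is myriocin, which blocks serine palmitoyltransferase and so the entry into sphingolipid synthesis, and myristate is a saturated fatty acid. Treatments lasted 45 min per the labels, which give no time for myristate with ISP1. For replicates 2 and 3 of that group the inhibitor carries another number in the description than in the title, and the titles were followed. The labels state no strain, temperature, dose or vehicle, and do not tell whether the replicates are separate cultures. A p-value therefore reflects only how far these arrays spread, and that spread may be technical.

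Polymerase I makes a single transcript, the precursor of the large ribosomal RNAs, from the repeated ribosomal DNA. Polymerase III makes the 5S ribosomal RNA, the transfer RNAs and other small RNAs. Both enzymes are known to be shut down when growth stops or stress sets in, polymerase I through the factor Rrn3 and polymerase III through Maf1, and much of that control acts on the proteins, which an array of transcripts does not measure. The mRNAs of these subunits and factors are made by polymerase II.

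Each member was measured by 1 probe set of its own. Levels are log2 signals, so a difference of 1 is a doubling, and the 35 members lay between 7.67 and 13.34 over the 21 arrays, above the limit of 4.89 set by probe sets of another species. The median level of all genes was between 10.21 and 10.33 on each array, because the authors' normalization brings the arrays to 1 distribution, and a shift common to most genes is hidden. Each difference is a log2 fold change with its standard error (±) by limma, with 3 arrays a group, and a change was called where limma's p, adjusted over all genes by the Benjamini-Hochberg method, was under 0.05. The number of arrays limits the precision. RNA came from whole cultures, in which fewer cells with a transcript and less of it in each cell cannot be told apart. The 9 general stress genes listed all rose with heat (median 3.52), 8 of 9 rose with ISP1 (median 1.84) and 8 of 9 rose with myristate (median 0.85). Of all genes 39.8% rose with heat, 27.9% with ISP1 and 26.6% with myristate. The stress genes were listed with earlier results of these data known, so they are no independent check of the treatments.

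Heat lowered the transcripts of the whole polymerase I enzyme, most of all those of its catalytic core. Of the 35 members 28 fell and 4 rose, where 40.9% of all genes fell and 39.8% rose, and every heat array lay below every control array for 29 members, against 42.2% of all genes. The median change of the members was -1.32, and that of all genes was -0.00. Among all genes 14.2% fell by at least 1 on the log2 scale, and among the members 19 of 35 did. The probe set at the 3' end of the 25S ribosomal RNA had a mean level of 14.63 in heated cells against 10.35 in the control. Over the 17 ribosomal RNA probe sets the median difference was 0.77, with every heat array above every control array for 9. The 3' minus 5' difference, a measure of RNA integrity, was larger in the heat mean for SRB4 (3.06 ± 0.19 in heated cells, 2.86 ± 0.02 in the control) and for SPT15 (1.75 ± 0.08 in heated cells, 1.54 ± 0.17 in the control). For ACT1 it was 0.52 ± 0.01 in heated cells and 0.56 ± 0.04 in the control (SD, n = 3 each). Their part in these results was not tested.

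RPA190 (YOR341W), which encodes the largest subunit of polymerase I, had levels of 10.03, 9.94 and 9.98 on the heat arrays, against 12.92, 13.13 and 13.04 on the control arrays. The groups were far apart. The change was -3.05 ± 0.09 (adjusted p = 1.64e-15, limma), an 8.26-fold fall that left 12.1% of the control signal. RPA135, the second-largest subunit, stood at 10.42, 10.50 and 10.35 with heat and at 13.34, 13.24 and 13.28 without it. Its change was -2.86 ± 0.07 (adjusted p = 4.79e-17, limma), a 7.28-fold fall. RPA43, a subunit of the stalk that touches Rrn3, had 8.30, 9.15 and 8.96 with heat against 11.52, 11.55 and 11.70 in the control, a fall of 6.89-fold. RPA43 and RPA190 are neighbours on chromosome XV in the R64 gene table, the only neighbours among the members, which lie on 11 chromosomes.

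The other polymerase I subunits fell by less. RPA49 (-2.39 ± 0.16) and RPA34 (-1.78 ± 0.14) encode the pair that resembles the polymerase II factor TFIIF, and RPA12 (-2.04 ± 0.17) encodes the subunit needed for transcript cleavage. RPA14, the partner of RPA43 in the stalk, had 11.43, 11.54 and 11.49 with heat against 12.03, 12.30 and 12.22 in the control. Its groups did not overlap either, but its change of -0.70 ± 0.08 was the smallest among the 7 subunits, and the partners of the stalk thus fell 1.62-fold and 6.89-fold. RPC40 and RPC19 encode the pair that nucleates assembly of both enzymes. RPC40 changed by -2.23 ± 0.13 and RPC19 by -1.41 ± 0.12.

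All 10 polymerase III subunits fell with heat, within a narrower range than those of polymerase I. Their changes ran from -2.08 to -1.21 with a median of -1.62, where the 7 polymerase I subunits ran from -3.05 to -0.70 with a median of -2.39. RPC31 had 8.64, 9.10 and 9.08 with heat against 10.84, 10.97 and 11.26 in the control (-2.08 ± 0.16). RPC34 had 8.74, 9.05 and 8.90 against 10.91, 11.04 and 10.90 (-2.06 ± 0.09). With RPC82 (-1.93 ± 0.10), these genes encode the trimer that joins polymerase III to its initiation factors. RPO31, the largest subunit, had 10.18, 10.43 and 10.36 with heat against 11.90, 11.90 and 11.92 in the control, a 2.99-fold fall, and RET1, the second-largest, fell 2.89-fold. For the catalytic pair, the falls of the polymerase III genes were thus smaller than the 8.26-fold and 7.28-fold falls of RPA190 and RPA135; the difference between the classes was not tested. RPC53 (-1.92 ± 0.13) and RPC37 (-1.21 ± 0.07) encode partners in the TFIIF-like pair, RPC25 (-1.66 ± 0.13) and RPC17 (-1.39 ± 0.14) the stalk, and RPC11 (-1.32 ± 0.10) the RNA cleavage subunit.

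**Figure D1:**
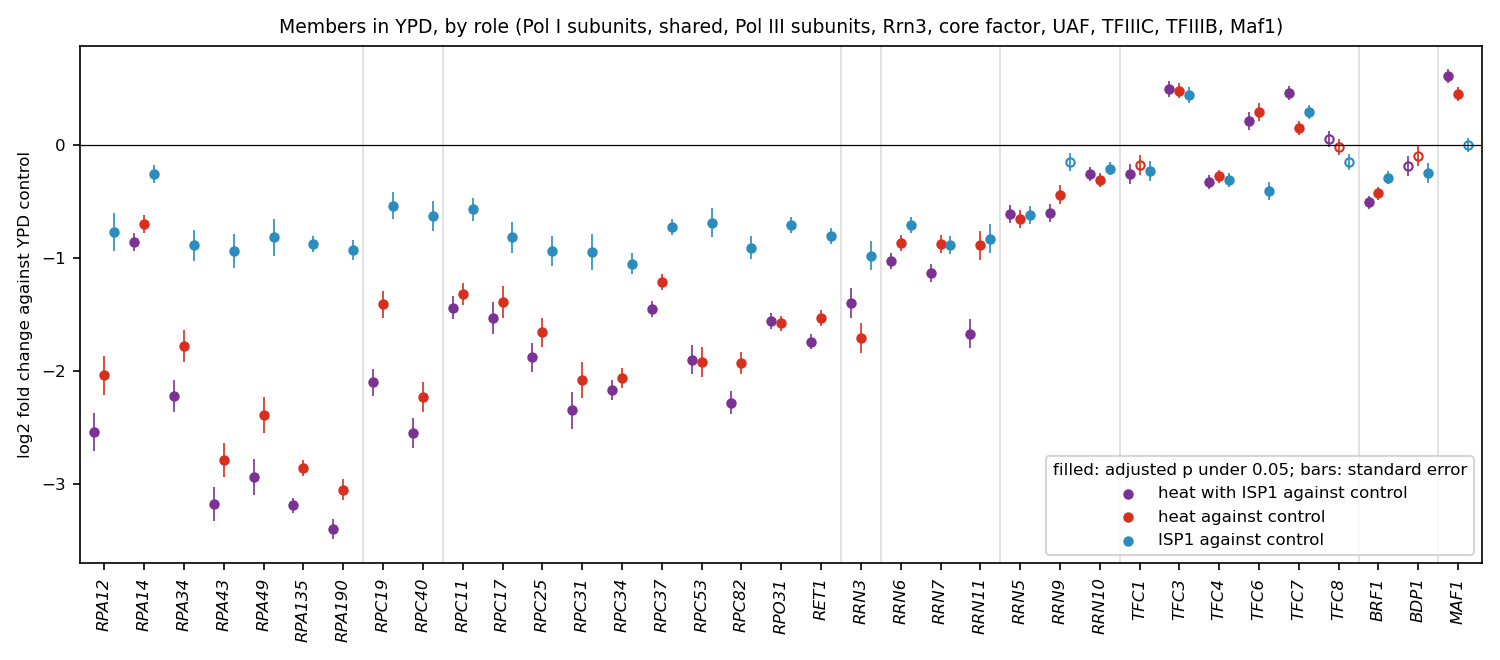
Log2 fold change (y axis) of each of the 35 members (x axis, grouped by role) in heat with ISP1, heat, and ISP1, each against the YPD control. Bars are standard errors from limma with 3 arrays a group, and open points were not called. Under heat the polymerase I subunits reach -3.05 and those of polymerase III -2.08, and under ISP1 alone these subunits lie between -1.05 and -0.26. The called points above 0 are TFC3 and TFC7 in every comparison, and TFC6 and MAF1 in heat and in heat with ISP1.

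Subunits of polymerase II changed by less than these, but most fell as well. Of its 7 listed subunits 6 fell with heat, where 40.9% of all genes fell. Their median was -0.32, against -0.00 for all genes, and the largest falls were those of RPB9 (-0.61 ± 0.08) and RPB11 (-0.46 ± 0.06). The 5 subunits that all 3 enzymes share all fell, with a median of -1.19, between the medians of the polymerase II and polymerase III classes. RPB8 fell by 1.56 ± 0.07 on the log2 scale and RPO26 by 1.49 ± 0.10. The mean level over the polymerase I subunits was at most 10.41 on the heat arrays and at least 12.39 on the control arrays. Over the polymerase II subunits it was 11.25, 11.30 and 11.34 with heat and 11.61, 11.61 and 11.65 in the control.

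**Figure D2:**
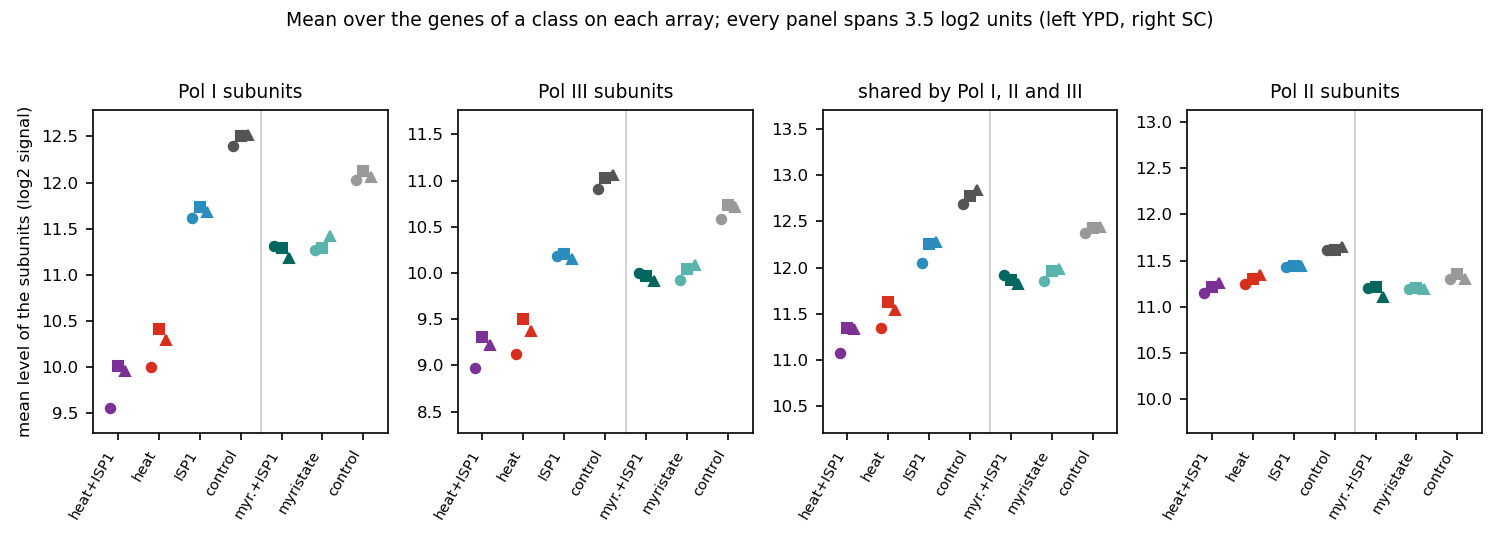
Mean level over the subunits of a class (y axis, log2 signal) on each array of the 7 groups (x axis), for polymerase I, polymerase III, the subunits common to all 3 enzymes, and polymerase II. Circles, squares and triangles are replicates 1, 2 and 3, and every panel spans the same log2 range. The polymerase I means reach 9.56 in heat with ISP1 against 12.39 to 12.51 in the YPD control, and the polymerase II means stay between 11.11 and 11.65.

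Initiation factors of polymerase I fell to differing degrees under heat. RRN3 encodes the factor that binds polymerase I and makes it able to initiate. It had 8.64, 9.21 and 9.12 with heat against 10.69, 10.58 and 10.84 in the control, a change of -1.71 ± 0.13 (adjusted p = 9.46e-10, limma). The 3 genes of the core factor, which binds the ribosomal DNA promoter, fell by almost the same amount, RRN6 by 0.87 ± 0.07, RRN7 by 0.88 ± 0.08 and RRN11 by 0.89 ± 0.13 on the log2 scale. The members of the upstream activating factor fell least: RRN5 changed by -0.66 ± 0.08, RRN9 by -0.44 ± 0.08 and RRN10 by -0.31 ± 0.06. This order does not hold for UAF30, a subunit of that factor outside the members. It had a mean of 7.53 with heat against 8.97 in the control. All 7 members among these factors fell, where 40.9% of all genes did, with a median of -0.87.

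The TFIIIC and TFIIIB members did not share the large falls of the polymerase III subunits, and their changes ran from -0.43 to 0.48. TFIIIC binds the internal promoters of transfer RNA genes, and TFIIIB, which it recruits, brings in the polymerase. Of the 6 TFIIIC genes 3 rose, 1 fell and 2 were not called under heat, where 39.8% of all genes rose and 40.9% fell. TFC3, whose product contacts the B box of those promoters, had 10.88, 10.61 and 10.68 with heat against 10.19, 10.24 and 10.31 in the control. Every heat array lay above every control array, and the change was 0.48 ± 0.07 (adjusted p = 2.9e-06, limma). TFC6 rose by 0.29 ± 0.08 and TFC7 by 0.15 ± 0.06 (adjusted p = 0.0246, limma). The call for TFC7 did not hold when only the arrays compared were fitted (adjusted p = 0.0623, limma), without heat replicate 2 (adjusted p = 0.0791, limma) or without control replicate 1 (adjusted p = 0.148, limma). TFC4, whose product recruits TFIIIB, fell by 0.28 ± 0.06, while TFC1 (-0.18 ± 0.09) and TFC8 (-0.02 ± 0.07) were not called. Of the TFIIIB genes BRF1 fell by 0.43 ± 0.06, and BDP1 (-0.10 ± 0.09) was not called. MAF1, the repressor, had 10.48, 10.51 and 10.51 with heat, and the control arrays lay between 9.98 and 10.16. Its groups were separate, and it rose by 0.45 ± 0.06 (adjusted p = 1.64e-06, limma), a 1.37-fold increase.

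ISP1 without heat lowered the subunits of both enzymes, by similar amounts. Of the 35 members 30 fell and 2 rose, where 33.2% of all genes fell and 27.9% rose. The median change was -0.71 for the members and -0.04 for all genes. The polymerase I subunits had a median of -0.88 and those of polymerase III a median of -0.81, and all 17 fell. These values share the control arrays with those of heat, and each comparison's own values stand side by side here.

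On the ISP1 arrays RPA190 had 12.17, 12.09 and 12.05, against 12.92, 13.13 and 13.04 in the control, a change of -0.93 ± 0.09, where heat gave -3.05. RPA43 changed by -0.94 ± 0.15 and RPA135 by -0.88 ± 0.07. RPA14 again changed least among the subunits, by -0.26 ± 0.08 (adjusted p = 0.00657, limma), and without ISP1 replicate 1 its call was lost (adjusted p = 0.0522, limma). RPC34 had a mean level of 9.90 with ISP1, its lowest array at 9.81, against 10.91, 11.04 and 10.90 in the control. Its arrays did not overlap, and its change was -1.05 ± 0.09. It was the only 1 of the 35 members called lower by at least 1 on the log2 scale. Of all genes 2.77% were called lower by at least 1, a similar share. RPC31 (-0.95 ± 0.16) and RPC25 (-0.94 ± 0.13) followed, and RPC11 changed least within polymerase III (-0.57 ± 0.10).

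With ISP1, 6 of the 7 polymerase I factors fell, where 33.2% of all genes did. The median was -0.71 over the 7 factors and -0.04 over all genes. RRN3 changed by -0.98 ± 0.13, RRN7 by -0.89 ± 0.08, RRN11 by -0.83 ± 0.13 and RRN6 by -0.71 ± 0.07. For the core factor and RRN5 (-0.62 ± 0.08) these values lie close to those under heat, -0.89 to -0.66. RRN9 was not called (-0.15 ± 0.08), and RRN10 fell by 0.21 ± 0.06, a call that was lost without ISP1 replicate 3 (adjusted p = 0.0528, limma). With the replicate number as a block over the arrays compared, which pairs these samples, TFC8 passed (adjusted p = 0.0498, limma) and RRN9 did not. RRN9 passed with that block over all arrays (adjusted p = 0.0445, limma), which include groups that were not paired. It also passed without control replicate 1 (adjusted p = 0.0165, limma).

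TFC6, a TFIIIC gene, moved in opposite directions with the treatments. It had 9.75, 9.59 and 9.36 with ISP1 and 10.21, 10.28 and 10.31 with heat, against 9.93, 10.08 and 9.92 in the control. Every ISP1 array lay below every control array and every heat array above them, and the change with ISP1 was -0.41 ± 0.08 (adjusted p = 0.000197, limma). TFC3 (0.44 ± 0.07) and TFC7 (0.29 ± 0.06) rose. TFC4 (-0.31 ± 0.06), BRF1 (-0.29 ± 0.06), BDP1 (-0.25 ± 0.09) and TFC1 (-0.23 ± 0.09) fell. The call of TFC1 was lost without ISP1 replicate 1 or 2 or control replicate 2 or 3, with an adjusted p of 0.0694 to 0.115 (limma). That of BDP1 was lost without ISP1 replicate 2 or control replicate 2 or 3, with an adjusted p of 0.0522 to 0.0838 (limma). MAF1 had 9.98, 10.07 and 10.07 with ISP1, within the range of the control arrays, and was not called (-0.00 ± 0.06, adjusted p = 0.963, limma).

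**Figure D3:**
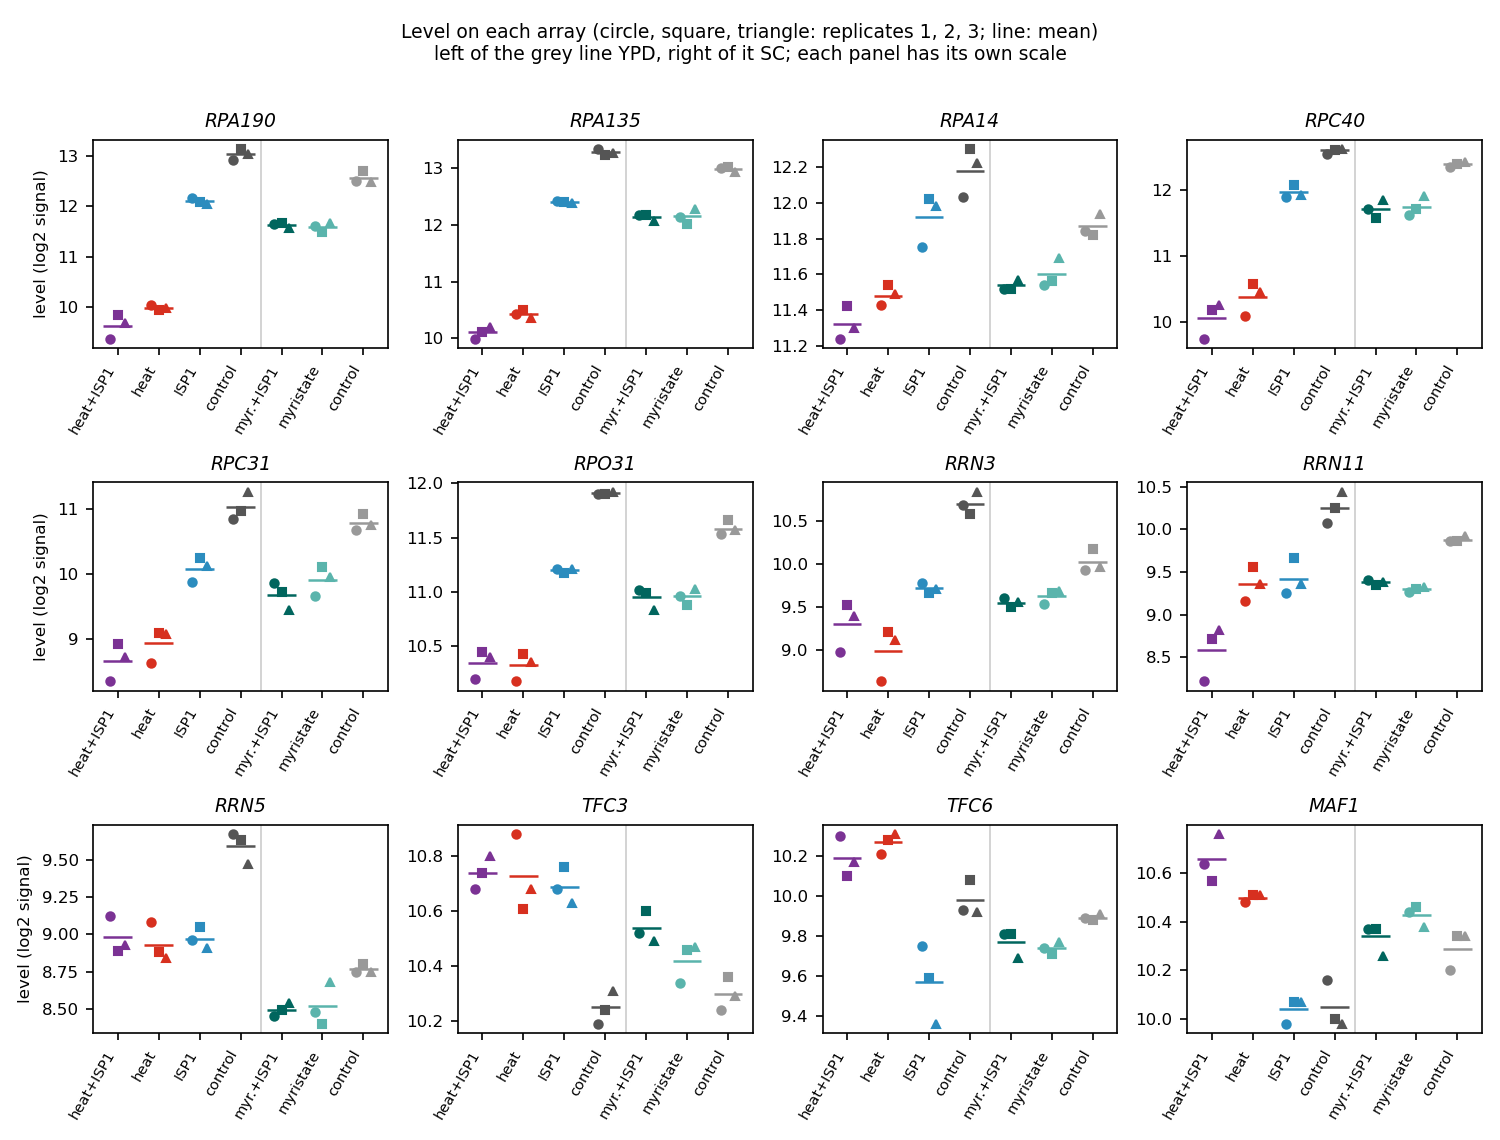
Level (y axis, log2 signal, a scale of its own in each panel) of 12 members on every array of the 7 groups (x axis). Circles, squares and triangles are replicates 1, 2 and 3, lines are means, and the grey line parts YPD from SC. RPA190 and RPA135 are lowest in the heat groups, MAF1 is near 10 with ISP1 alone and in the YPD control, and TFC6 lies below the control with ISP1 and above it with heat.

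Heat and ISP1 together gave the lowest levels of most members. Against the control, 29 of 35 members fell and 4 rose, where 40.5% of all genes fell and 41.8% rose. Of the 4 YPD groups, heat with ISP1 had the lowest mean for 24 of the 35 members, among them all 7 polymerase I subunits and 8 of the 10 of polymerase III. Among all genes, 1550 of 5449 had their lowest mean there. By at least 1 on the log2 scale 22 members fell, and 15.5% of all genes did. The median change was -2.94 for the polymerase I subunits, -1.81 for those of polymerase III and -1.03 for the polymerase I factors, against 0.03 for all genes. RPA190 had 9.37, 9.84 and 9.68 in heat with ISP1, a 10.6-fold fall from the control, and RPA135 (9.99, 10.11 and 10.19) fell 9.13-fold. TFC7 rose by 0.46 ± 0.06, and MAF1, at 10.64, 10.57 and 10.76, rose by 0.61 ± 0.06. The call of TFC1 (-0.26 ± 0.09) was lost without replicate 1 of heat with ISP1 or control replicate 3, up to an adjusted p of 0.0579 (limma). That of TFC6 (0.21 ± 0.08) was lost without replicate 1 of heat with ISP1, control replicate 1 or control replicate 3, up to an adjusted p of 0.0957 (limma).

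Set against heat alone, the further changes were smaller. Of the members 11 fell and 1 rose, where 16.3% of all genes fell and 16.5% rose, and the median change of the members was -0.16. The polymerase I subunits fell in 5 of 7 cases, with a median of -0.40, and those of polymerase III in 3 of 10, with a median of -0.18. RPA135 fell by 0.33 ± 0.07 and RPC19, the shared assembly subunit, by 0.69 ± 0.12. RRN11 of the core factor had 8.22, 8.71 and 8.82 in heat with ISP1 against 9.16, 9.56 and 9.36 in heat. The groups did not overlap, and the fall of 0.78 ± 0.13 was the largest among the members. TFC7 had 10.19, 10.30 and 10.26 in heat with ISP1 against 9.91, 9.98 and 9.94 in heat, and rose by 0.31 ± 0.06. RPA43 (-0.40 ± 0.15, adjusted p = 0.0506, limma) fell just outside the threshold.

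These calls depended on single arrays. Replicate 1 was the lowest of the 3 arrays for 28 of 35 members in heat with ISP1 and for 25 of 35 in heat, where that held for 2325 and 2309 of all 5449 genes. RPA12, for example, had 8.85, 9.53 and 9.52 in heat with ISP1 and 9.33, 10.11 and 9.96 in heat. A low replicate 1 was not particular to heat. It was lowest for 23 of 35 members in the YPD control, 24 in the SC control and 21 in myristate. In ISP1 it was lowest for 13 and in myristate with ISP1 for 5. Of all 5449 genes it was lowest for 1986, 3354, 2711, 2035 and 1516 in these groups, in the same order. The count of members that fell became 4 without replicate 1 of heat with ISP1, 16 without heat replicate 1, 4 without heat replicate 2 and 6 without heat replicate 3. The calls of RPC19, RPA135, RRN11 and TFC7 held in all 15 alternative settings. The replicate number pairs these samples, and with it as a block over the arrays compared, 14 members fell and 2 rose. In that fit RPA43 (adjusted p = 0.0358, limma), RPC40 (adjusted p = 0.0184, limma), RPC25 (adjusted p = 0.0349, limma) and RPC31 (adjusted p = 0.0237, limma) fell as well. RRN3 rose (0.32, adjusted p = 0.0104, limma) and RPA190 was no longer called (adjusted p = 0.0616, limma).

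Heat in the presence of ISP1, set against ISP1 alone, lowered 25 members and raised 4, where 37.2% of all genes fell and 40% rose. The order of the enzymes was as for heat alone, with medians of -2.11 for the polymerase I subunits and -0.93 for those of polymerase III. RPA190 changed by -2.47 ± 0.09 and RPO31 by -0.85 ± 0.07. TFC6 (0.62 ± 0.08) and MAF1 (0.62 ± 0.06) rose. RRN3 fell by 0.42 ± 0.13, a call that was lost without replicate 1 of heat with ISP1 (adjusted p = 0.0761, limma), and RRN7 (-0.24 ± 0.08) lost its call with the replicate block over the arrays compared (adjusted p = 0.058, limma). RRN7 also lost it without replicate 1 of heat with ISP1 (adjusted p = 0.112, limma) and without ISP1 replicate 1 (adjusted p = 0.0595, limma). TFC7 (0.17 ± 0.06) lost its call without replicate 2 of heat with ISP1 and without ISP1 replicate 1, up to an adjusted p of 0.0675, and TFC8 (0.21 ± 0.07) without ISP1 replicate 3 (adjusted p = 0.0611, limma).

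The interaction asked whether ISP1 changed a transcript differently in heated and in unheated cells. A positive value means a smaller fall, or a larger rise, with ISP1 in heated cells than in unheated cells. Of the members 19 had a called positive value and 1 a negative one, where 21.8% of all genes were positive and 19.1% negative. The median was 0.45 for the members and 0.04 for all genes. The polymerase III subunits were positive in 10 of 10 cases, from 0.45 to 0.94 with a median of 0.68. Those of polymerase I were called in 2 of 7, RPA190 (0.57 ± 0.13) and RPA135 (0.55 ± 0.09), with a median over the 7 of 0.45. The count for polymerase I depended on the setting. It was 4 of 7 with the replicate block, where RPA43 (adjusted p = 0.0293, limma) and RPA34 (adjusted p = 0.0365, limma) were called over the arrays compared. It was 5 of 7 without replicate 1 of heat with ISP1 and 4 of 7 without heat replicate 2. The count for polymerase III was 8 to 10 of 10 over the 21 settings, and the difference between the enzymes was not tested.

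RPC34, with the largest value within polymerase III, fell with ISP1 by 1.05 ± 0.09 in unheated cells, and in heated cells its change was -0.11 ± 0.09. Its levels were 8.60, 8.93 and 8.81 in heat with ISP1 and 8.74, 9.05 and 8.90 in heat. These overlap, and the interaction was 0.94 ± 0.12 (adjusted p = 1.2e-05, limma). RPO31 (0.74 ± 0.10) changed by 0.02 ± 0.07 with ISP1 in heated cells and by -0.71 ± 0.07 in unheated cells. RRN3 had the largest interaction of the members, 1.30 ± 0.19 (adjusted p = 3.29e-05, limma). Its levels were 8.98, 9.53 and 9.40 in heat with ISP1, 8.64, 9.21 and 9.12 in heat, 9.78, 9.67 and 9.71 in ISP1, and 10.69, 10.58 and 10.84 in the control. The arrays of heat with ISP1 thus lay among and above those of heat, while those of ISP1 lay below the control.

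RRN5, of the upstream activating factor, had 9.12, 8.89 and 8.93 in heat with ISP1, 9.08, 8.88 and 8.84 in heat, 8.96, 9.05 and 8.91 in ISP1, and 9.67, 9.63 and 9.47 in the control. The arrays of the 3 treatments overlapped one another and all lay below the control, and the interaction was 0.66 ± 0.12. RRN7 (0.64 ± 0.12) and RRN6 (0.55 ± 0.10) were called too, while RRN11 (0.06 ± 0.19) and RRN9 (-0.01 ± 0.11) were not. TFC3 was the negative one, at -0.43 ± 0.09. It stood at 10.68, 10.74 and 10.80 in heat with ISP1, 10.88, 10.61 and 10.68 in heat, 10.68, 10.76 and 10.63 in ISP1, and 10.19, 10.24 and 10.31 in the control, so that the arrays of the 3 treatments overlapped, all above the control. Of the shared subunits neither RPC40 (0.32 ± 0.18) nor RPC19 (-0.15 ± 0.16) was called. RPA43 (0.54 ± 0.21) was just outside the threshold at an adjusted p of 0.05 and was called in 9 of 21 settings, and RPA34 (0.45 ± 0.20, adjusted p = 0.0794, limma) was called in 5 of 21.

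Calls for RPC11, RPC31, RRN10 and TFC6 did not hold in every setting. RPC11 (0.45 ± 0.14) was lost without replicate 2 of heat with ISP1 (adjusted p = 0.0519, limma) and when only the arrays compared were fitted. RPC31 (0.68 ± 0.23) was lost without replicate 2 or 3 of heat with ISP1, heat replicate 1, ISP1 replicate 1 or control replicate 3, with an adjusted p of at most 0.078. RRN10 (0.25 ± 0.09) was lost in 11 of 21 settings, 9 of which leave out an array: any of heat with ISP1, heat replicate 1 or 3, ISP1 replicate 1 or 3, or control replicate 2 or 3, up to an adjusted p of 0.0893 (limma). TFC6 (0.33 ± 0.11) was lost in 6 of 21 settings, among them without replicate 1 of heat with ISP1, heat replicate 1, ISP1 replicate 3 or control replicate 2, up to an adjusted p of 0.0685 (limma).

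**Figure D4:**
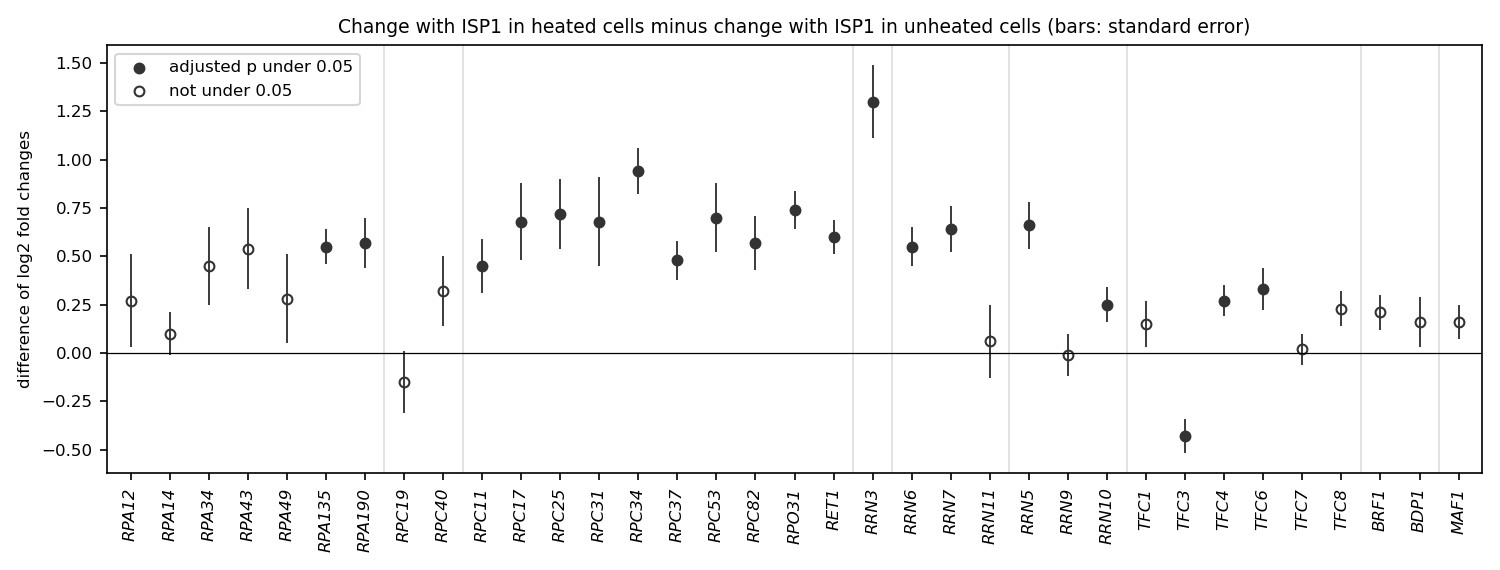
Interaction of heat and ISP1 (y axis, the log2 change with ISP1 in heated cells minus that in unheated cells) for each of the 35 members (x axis, grouped by role). Bars are standard errors from limma, and open points were not called. The 10 polymerase III subunits lie between 0.45 and 0.94, RRN3 is the highest at 1.30, and TFC3 is the lowest at -0.43.

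In SC, myristate lowered the same classes in cells that had neither heat nor ISP1. Of the members 26 fell and 1 rose, where 25.7% of all genes fell and 26.6% rose. All 17 polymerase I and III subunits fell, with medians of -0.84 for polymerase I and -0.72 for polymerase III, against -0.01 for all genes. RPA190 had 11.61, 11.49 and 11.67 with myristate against 12.50, 12.70 and 12.47 in the SC control, a change of -0.97 ± 0.09 (adjusted p = 1.5e-07, limma). RPC31 had 9.66, 10.11 and 9.96 with myristate against 10.67, 10.92 and 10.75 (-0.87 ± 0.16). In both the groups were separate. The smallest falls were those of RPA14 (-0.27 ± 0.08) in polymerase I and RPC11 (-0.34 ± 0.10) in polymerase III, which had also changed least in their enzymes with ISP1. Of the polymerase I factors 6 of 7 fell, with a median of -0.40, and RRN10 was not called (0.05 ± 0.06). Of the 6 TFIIIC genes 5 were not called. The polymerase II subunits fell in 2 of 7 cases, with a median of -0.12, and the 5 subunits common to all 3 enzymes all fell, with a median of -0.49.

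RRN3 had 9.54, 9.66 and 9.69 with myristate against 9.93, 10.18 and 9.97 in the SC control. Its fall of 0.40 ± 0.13 lost its call without myristate replicate 1 or SC control replicate 2, up to an adjusted p of 0.0926 (limma). RRN5 (-0.24 ± 0.08) lost its call without either of these or myristate replicate 2, up to an adjusted p of 0.0976, and BRF1 (-0.20 ± 0.06) without SC control replicate 3 (adjusted p = 0.0642, limma). TFC7 was the member that rose, by 0.27 ± 0.06, and MAF1 (0.13 ± 0.06, adjusted p = 0.0773, limma) was not called. With the replicate block over the arrays compared, which pairs these samples, TFC3 rose (0.12, adjusted p = 0.044, limma) and TFC6 fell (-0.15, adjusted p = 0.0167, limma).

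Heat and myristate were measured against different controls in different media, so their values can be set against each other. Across the 35 members the changes had a Pearson r of 0.92 and a Spearman rho of 0.93, and 33 had the same sign. Across the 17 subunits of polymerase I and III alone r was 0.82 and rho was 0.83, and all 17 had the same sign. Across all 5449 genes r was 0.78, rho was 0.77 and 4339 had the same sign. Many members are parts of 1 complex and all arrays share a platform, so the points are not independent.

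**Figure D5:**
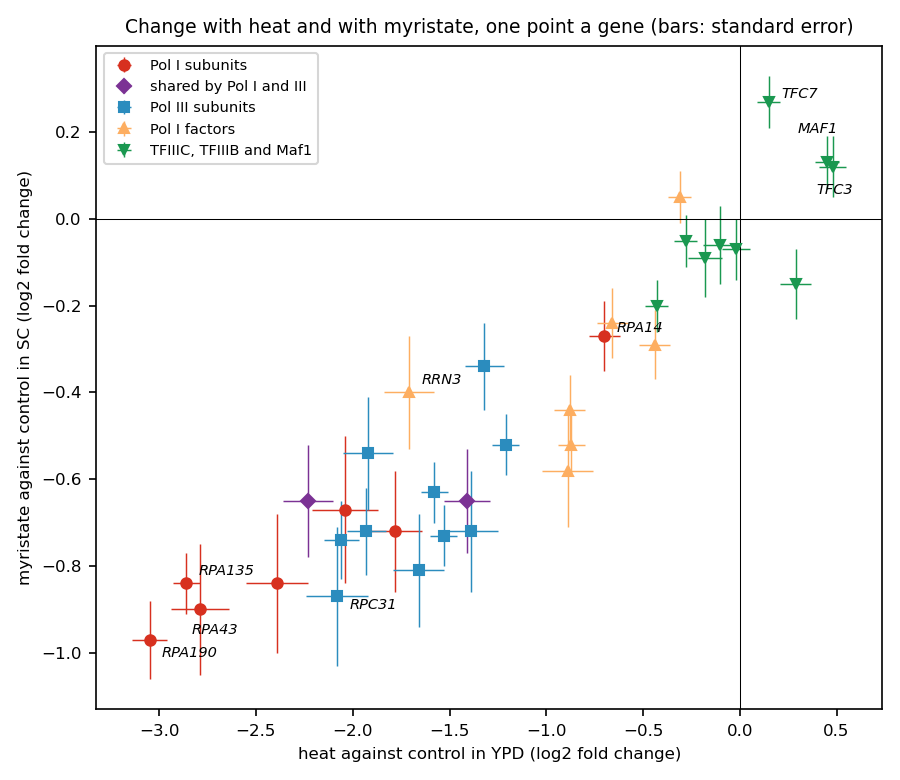
Log2 fold change with myristate in SC (y axis) against that with heat in YPD (x axis), 1 point a member, coloured by class. Bars are standard errors from limma. RPA190, at -3.05 and -0.97, is lowest on both axes, RPA14 stands apart from the other polymerase I subunits, and TFC7 lies above 0 on both.

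With ISP1 added to myristate no member was called. By limma 0 of 35 were called, 0 had an unadjusted p under 0.05, and the 95% confidence intervals of the 35 changes lay within -0.58 and 0.36. Over all genes 0.0184% were called higher and 0% lower, and 349 of 5449 had an unadjusted p under 0.05. RPA190 had 11.65, 11.67 and 11.57 in myristate with ISP1 against 11.61, 11.49 and 11.67 in myristate, which overlap (0.04 ± 0.09). The difference between this and the effect of ISP1 in YPD was not tested. Against the SC control, myristate with ISP1 lowered 26 members and raised 2, TFC3 (0.24 ± 0.07) and TFC7 (0.27 ± 0.06), where 26.7% of all genes fell and 30.2% rose. RRN9 lost its call there without SC control replicate 3 (adjusted p = 0.0751, limma).

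The controls of the 2 media differed as well. In the SC control 22 members were lower and 1 was higher than in the YPD control, where 40.9% of all genes were lower and 18.9% higher. The median was -0.29 for the members and -0.13 for all genes. RRN5, with 8.75, 8.80 and 8.75 in SC against 9.67, 9.63 and 9.47 in YPD, differed most (-0.82 ± 0.08), followed by RPC34 (-0.72 ± 0.09) and RRN3 (-0.68 ± 0.13). Stress genes were higher in the SC control too, in 8 of 9 cases with a median of 2.47. The 3' minus 5' difference was 1.78 ± 0.12 in the SC control and 2.86 ± 0.02 in the YPD control for SRB4, and 0.36 ± 0.01 in SC and 0.56 ± 0.04 in YPD for ACT1. For SPT15 it was 1.65 ± 0.10 in SC and 1.54 ± 0.17 in YPD, within the spread of the arrays (SD, n = 3 each). The part of these values in the differences was not tested. MAF1 was the higher one (0.25 ± 0.06). The falls of RPA12 (-0.48 ± 0.17), RRN11 (-0.38 ± 0.13) and BDP1 (-0.28 ± 0.09) lost their calls without SC control replicate 1. RPA12 and BDP1 also lost them without YPD control replicate 2, RPA12 and RRN11 without YPD control replicate 3 and RRN11 without SC control replicate 2, up to an adjusted p of 0.109 (limma). RRN6 (-0.22 ± 0.07) lost its call with quantile normalization over S. cerevisiae genes (adjusted p = 0.13, limma) and with median centring (adjusted p = 0.0775, limma).

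Other genes of the same systems were counted too. Of 7 other factors of the 2 enzymes and the ribosomal DNA, 6 fell and 1 rose with heat, where 40.9% of all genes fell and 39.8% rose. UAF30 of the upstream activating factor fell by 1.44 ± 0.10 on the log2 scale, against a change of -0.09 ± 0.10 with ISP1, which was not called. FOB1, which holds the replication fork barrier of the ribosomal DNA, fell by 1.18 ± 0.07 and NET1, a nucleolar protein that binds polymerase I, by 1.09 ± 0.08 with heat, and REB1, which binds the terminator of the ribosomal DNA, by 0.61 ± 0.07. Named after their values were seen were HMO1 and SPT15. SPT15, the TATA-binding protein that is the remaining part of TFIIIB, changed by -0.52 ± 0.05 both with heat and with ISP1. HMO1, a high-mobility-group protein of the ribosomal DNA, was the factor that rose (0.36 ± 0.05).

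Among 11 kinase and phosphatase genes that act on Maf1 or polymerase III, 8 fell and 2 rose with heat, beside the same 40.9% and 39.8% of all genes. KNS1, a kinase that phosphorylates Rpc53 when polymerase III is repressed, rose most, by 1.85 ± 0.09 in heat with ISP1, 1.51 ± 0.09 in heat, 0.75 ± 0.09 in ISP1 and 0.46 ± 0.09 in myristate. PPH3, the catalytic subunit of a phosphatase that acts on Maf1, changed by -1.72 ± 0.07 in heat with ISP1, -1.39 ± 0.07 in heat, -1.01 ± 0.07 in ISP1 and -0.53 ± 0.07 in myristate. SCH9, a kinase that phosphorylates Maf1 in growing cells, fell by 0.98 ± 0.06 in heat with ISP1, 0.96 ± 0.06 in heat, 0.63 ± 0.06 in ISP1 and 0.32 ± 0.06 in myristate. All of these changes were called.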

How the data were processed

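The values are log2 signals per probe set as the authors deposited them, 1 column per array; affy and RMA appear, without versions, in the submitters' processing notes. RMA corrects for background, brings all arrays to the same quantiles and fits 1 value per probe set. Of 10928 probe sets, 5498 had 1 S. cerevisiae gene in the platform annotation, giving 5449 genes (the probe set with the highest mean where a gene had several). Names were updated with the R64 gene table, which also gave the chromosome and the neighbours of each member; no coordinates from it are given.

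Group means were fitted over all 21 arrays with lmFit and eBayes of limma 3.58.1 under R 4.3.3, the comparisons were taken as contrasts, and p-values were adjusted by Benjamini-Hochberg over all genes with a threshold of 0.05. All 35 members are named genes, and examples from other lists are those with the largest changes. Members, lists and comparisons were chosen with earlier results of these data known. The fit was tested on simulated data with independent noise, and so not on samples paired by replicate number. Replicate numbers, from the titles, were taken to pair samples where every same-number correlation of deviations was over 0.1, for ISP1 and the control (r 0.230 to 0.530), for heat with ISP1 and either heat (0.172 to 0.433) or ISP1 (0.132 to 0.350), and for myristate and its SC control (0.322 to 0.626). Alternatives were blocking on the replicate number, fitting only the arrays compared, leaving out dim genes, 2 renormalizations, an intensity trend, array weights, the mean of probe sets and leaving out each array. Promoter sequences were not used here.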

Additional observations from a re-analysis of the deposited data

Results flagged for a closer look

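The interaction test called 20 members (limma, adjusted p under 0.05), 19 positive and 1 negative. Among all genes 21.8% were called positive and 19.1% negative. In the 20 members ISP1 changed the level by a different amount in heated and in unheated cells. As differences of log2 fold changes, the polymerase III subunits gave 0.94 for RPC34, 0.74 for RPO31, 0.72 for RPC25, 0.70 for RPC53, 0.68 for RPC17 and RPC31, 0.60 for RET1, 0.57 for RPC82, 0.48 for RPC37 and 0.45 for RPC11. The polymerase I subunits RPA190 and RPA135 gave 0.57 and 0.55. Among the polymerase I factors RRN3 gave 1.30, RRN5 0.66, RRN7 0.64, RRN6 0.55 and RRN10 0.25. TFC6 gave 0.33, TFC4 0.27 and TFC3 -0.43. The calls of RPC11, RPC31, RRN10 and TFC6 did not hold in every setting.

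Probe sets for ribosomal RNA, the product of polymerase I, lie outside the genes compared, and some gave a signal above that of the control under heat. The probe set at the 3' end of the 25S ribosomal RNA had 13.89, 13.81 and 13.76 in heat with ISP1, 14.68, 14.68 and 14.54 in heat, 10.03, 10.39 and 9.86 in ISP1, and 10.29, 10.56 and 10.19 in the control (log2 signal). The difference from the control was 3.48 in heat with ISP1 and 4.29 in heat. The 17 ribosomal RNA probe sets did not move as one. Every array lay above every control array for 3 of them in heat with ISP1, 9 in heat and 0 in ISP1, and below every control array for 1 in heat with ISP1, 0 in heat and 11 in ISP1. The median difference from the control was -0.04 in heat with ISP1, 0.77 in heat and -0.40 in ISP1. In heat some differences rested on replicate 1. A probe set of the 18S ribosomal RNA had 11.23, 8.27 and 7.92 in heat, against 8.51, 8.93 and 8.50 in the control. How ribosomal RNA came to be labelled was not tested, and nothing about its amount in the cells was read from these signals.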

How the results depend on the processing

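Over 10 comparisons of 35 members, 236 of 350 member values were called, and 203 of these were called in every alternative. The other 33 lost their call in 1 or more, 35 further values gained one, and none of the called values changed sign. The counts that moved by over 1.5 times follow, without the shares of all genes in the same fits. For heat with ISP1 against heat, 3 members fell when only the arrays compared were fitted, and leaving out 1 array at a time gave 4 to 16. The members that rose there, 1 in the report, were 2 with the replicate block over the arrays compared, 3 with array weights and 1 to 2 when leaving out 1 array. For myristate, the 1 member that rose became 2 with that block, 3 with quantile normalization over S. cerevisiae genes and 2 with median centring. For SC against YPD the 1 member higher in SC became 0 with that block. For every other count of members that fell or rose, the block and the remaining alternatives stayed within 1.5 times, for heat against control 28 falls and 3 rises with the block. The number of arrays, 3 a group, limits how small a change can be called, and quantile normalization would hide a shift common to most transcripts.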
